A study of Homo sapiens with 8 samples.

Results

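The mRNAs of 10 keratin genes, KRT5, KRT7, KRT8, KRT80 and KRT81 of type II and KRT15, KRT17, KRT18, KRT19 and KRT23 of type I, were followed on 8 single-colour microarrays of OVSAHO and KURAMOCHI cells. They were 10 of the 22428 genes that had a named probe on the array, and were found through the RefSeq identifier of each probe. KRT8 had 3 probes, KRT18 and KRT23 had 2 each, and the other 7 genes had 1 probe. For each gene the probe with the highest mean log2 signal over the 8 arrays was used, and the other probes are described where they matter. All 10 genes passed the filter on dim signals, which kept a probe once the 2 arrays of any group were both well above background.

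OVSAHO and KURAMOCHI are established human lines of ovarian serous carcinoma. Each was cultured with simvastatin, a statin that blocks the reductase at the head of the mevalonate pathway, or with L-778123, which blocks the farnesyl transferase and the geranylgeranyl transferase that attach products of that pathway to proteins. The 4 groups (OVSAHO with simvastatin, OVSAHO with L-778123, KURAMOCHI with simvastatin, KURAMOCHI with L-778123) had 2 arrays each, all had received a drug, and no untreated cells were analysed here. A difference between the drugs therefore does not tell which drug moved a gene. The doses and times of these cultures are not given in the sources used here, and nothing says whether the arrays of a group came from separate cultures, so that p-values measure the spread between these arrays. Each group is 1 cell line, which limits what a difference between the lines says about serous carcinoma.

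Keratins are the intermediate filament proteins of epithelial cells. A filament is built from pairs of 1 type I and 1 type II chain, so that both types are needed in a cell, and KRT8 with KRT18 is the usual pair of simple epithelia. KRT7 and KRT19 are further keratins of simple and ductal epithelia, KRT5, KRT15 and KRT17 are best known from basal cells of layered epithelia, and KRT81 from hair. In pathology, KRT7 is a common marker of ovarian carcinoma. Filaments are anchored at desmosomes, which join neighbouring cells, and at hemidesmosomes, which join cells to the matrix.

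The 2 arrays of a group correlated at 0.995 to 0.996 over the 33753 probes that passed the filter, and 30122 to 33438 of 58162 probes were well above background on an array. All 12 markers listed for serous carcinoma were well above background on all 8 arrays, of which KRT7, KRT8 and KRT18 are 3. Of the markers of other cell types, 2 of 6 fibroblast markers (COL1A1 and COL3A1), 2 of 3 endothelial markers (CDH5 and VWF) and 2 of 3 mesothelial markers (UPK3B and LRRN4) passed the filter, while DCN, LUM, PECAM1 and CALB2 were not well above background on any array. The summed signal of the 6 fibroblast markers, in units of the 75th percentile of the array, was 0.0826 to 0.108 over the OVSAHO arrays and 2.42 to 3.26 over the KURAMOCHI arrays. That of the 3 mesothelial markers was 1.996 to 2.07 in OVSAHO with simvastatin, 5.69 to 6.40 in OVSAHO with L-778123 and 0.675 to 1.19 in KURAMOCHI, and that of the 3 endothelial markers was lowest in OVSAHO with simvastatin (0.214 to 0.252) and otherwise 0.545 to 0.883. In KURAMOCHI cells COL3A1 was the brightest fibroblast marker, with means of 1.15 (simvastatin) and 1.54 (L-778123) on the log2 scale. UPK3B was the brightest mesothelial marker in OVSAHO cells, at 1.01 and 2.59, where LRRN4 was not well above background on any array. These 2 sums therefore mainly follow 1 gene each. The part of the marker genes in the results was not tested. The 8 arrays lay on 1 slide, on which position and group cannot be told apart.

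Values are log2 signals relative to the 75th percentile of the array, so that 0 is the level that 75% of probes lie below and a step of 1 is a doubling. A gene was called different where the adjusted p lay under 0.05 (limma, Benjamini-Hochberg over all 33753 probes tested) and the signals differed by a factor of 2 or more. In bulk RNA, fewer cells with a transcript and less transcript per cell cannot be told apart. The levels of the 10 keratins on each array are plotted first.

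**Figure D1:**
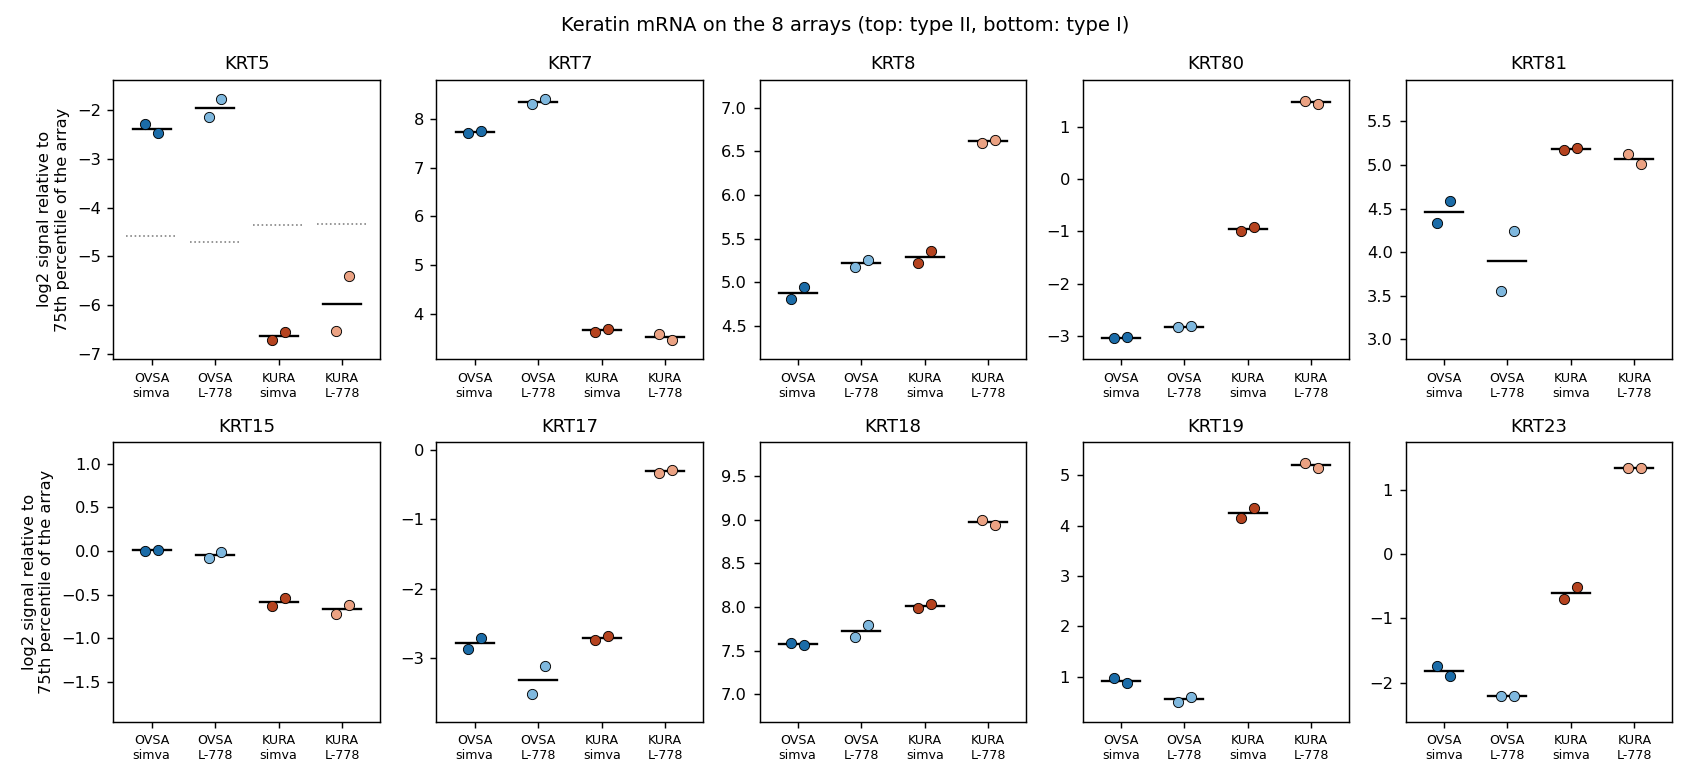
Log2 signal of each keratin relative to the 75th percentile of the array (y axis, a scale of its own in each panel) in OVSAHO (OVSA) and KURAMOCHI (KURA) cells with simvastatin (simva) or L-778123 (L-778), with 1 point per array, a bar at the mean of the 2 arrays, and a dotted line, where it falls within the panel, at the higher of the lowest signals well above background on the 2 arrays. KRT8, KRT80, KRT17, KRT18, KRT19 and KRT23 are highest in KURAMOCHI cells with L-778123, while KRT7 and KRT5 are high in OVSAHO cells with either drug.

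In KURAMOCHI cells, 4 of the 10 keratins were called lower with simvastatin than with L-778123 and none was called higher, while 2.94% of the 16942 genes tested were called lower and 2.43% higher. These were KRT80 and KRT8 of type II and KRT17 and KRT23 of type I. KRT18, the partner of KRT8, and KRT19 were lower as well but with fold changes just under 2, and these 6 were the keratins with an adjusted p under 0.05, a level that 35.4% of all genes tested reached at any fold. The median log2 difference was -0.66 over the 5 type II keratins and -0.96 over the 5 type I keratins, beside 0.011 over all genes tested. The type II median is the value of KRT5, which was not well above background on any KURAMOCHI array. With a floor on dim signals KRT5 turned to 0.095, so that the type II median gives no size.

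KRT80, a type II keratin, stood at -0.99 and -0.92 on the 2 KURAMOCHI arrays with simvastatin and at 1.498 and 1.44 with L-778123. The groups did not overlap, and the 2 arrays of each lay within 0.065 of each other. The difference was -2.42 on the log2 scale (SE 0.056), a 5.36-fold lower signal with simvastatin (limma, adjusted p = 6.46e-05).

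KRT17, a basal type I keratin, stood at -2.75 and -2.69 with simvastatin and at -0.32 and -0.28 with L-778123. As for KRT80, no array of a group reached the other group. The log2 difference was -2.41 (SE 0.14), 5.33-fold lower with simvastatin (limma, adjusted p = 0.000332), and -1.55 with the normexp background correction.

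KRT23, a type I keratin, stood at -0.69 and -0.51 with simvastatin and at 1.34 and 1.35 with L-778123, a log2 difference of -1.94 (SE 0.087) or 3.85-fold (limma, adjusted p = 0.000197). Its second, dimmer probe gave a difference of -1.87 (SE 0.16, limma, adjusted p = 0.00107) in the same direction.

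KRT8 and KRT18 form the filament pair of simple epithelia, and both were lower with simvastatin in KURAMOCHI cells. KRT8 stood at 5.22 and 5.36 with simvastatin and at 6.59 and 6.63 with L-778123, 2.50-fold lower (log2 difference -1.32, SE 0.080, limma, adjusted p = 0.00037). KRT18 stood at 7.99 and 8.04 with simvastatin and at 9.003 and 8.94 with L-778123, 1.94-fold lower (log2 difference -0.96, SE 0.068, limma, adjusted p = 0.00058). KRT18 therefore fell short of the fold threshold at its brighter probe, and its dimmer probe, at 2.36-fold lower (log2 difference -1.24, SE 0.071, limma, adjusted p = 0.000324), passed it.

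KRT19, a type I keratin of simple epithelia, stood at 4.16 and 4.35 with simvastatin and at 5.26 and 5.14 with L-778123, 1.92-fold lower (log2 difference -0.94, SE 0.090, limma, adjusted p = 0.00139). The arrays of the drugs did not overlap, but the fold change lay under the threshold. A further 3 keratins that were well above background in KURAMOCHI cells did not pass the test, with log2 differences of 0.14 for KRT7 (SE 0.070, limma, adjusted p = 0.192), 0.089 for KRT15 (SE 0.067, limma, adjusted p = 0.358) and 0.11 for KRT81 (SE 0.22, limma, adjusted p = 0.731). KRT5 was not well above background on any KURAMOCHI array, so that no fold change between the drugs is given there.

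In OVSAHO cells none of the 10 keratins was called with limma, although 7 had an unadjusted p under 0.05 and 6 an adjusted p under 0.05. An analysis of variance with Tukey's post hoc comparison called 0 as well. Of all genes tested, 5.69% were called higher and 5.87% lower with simvastatin in this line, and 54% had an adjusted p under 0.05 at any fold. The 6 keratins under that adjusted p were 3 with a lower and 3 with a higher signal with simvastatin, each by less than 2-fold.

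KRT7 differed most among these 6 in OVSAHO cells, at 7.71 and 7.75 with simvastatin and 8.30 and 8.40 with L-778123 (log2 difference -0.63, SE 0.070, 1.55-fold lower, limma, adjusted p = 0.00109). KRT8 was lower by a smaller amount, at 4.81 and 4.95 with simvastatin and 5.18 and 5.26 with L-778123 (log2 difference -0.34, SE 0.080, limma, adjusted p = 0.0164). KRT80 stood at -3.04 and -3.03 with simvastatin and -2.84 and -2.81 with L-778123 (log2 difference -0.21, SE 0.056, limma, adjusted p = 0.0259). In none of these 3 did the arrays of the drugs overlap. With the normexp background correction KRT80 turned to 0.046 (SE 0.062, limma, adjusted p = 0.54), so that its direction in OVSAHO cells depends on the processing.

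KRT17, KRT19 and KRT23, all of type I, lay higher on both OVSAHO arrays with simvastatin than on those with L-778123, opposite to their direction in KURAMOCHI cells, and an adjusted p under 0.05 by limma but not by the analysis of variance. KRT17 stood at -2.87 and -2.71 with simvastatin and -3.53 and -3.13 with L-778123 (log2 difference 0.54, SE 0.14, limma, adjusted p = 0.0232). KRT19 stood at 0.96 and 0.87 against 0.50 and 0.60 (log2 difference 0.37, SE 0.090, limma, adjusted p = 0.0194), and KRT23 at -1.74 and -1.90 against -2.21 and -2.21 (log2 difference 0.39, SE 0.087, limma, adjusted p = 0.0147). The second probe of KRT23 was not well above background in either OVSAHO group and gave no fold change there.

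Tukey's comparison gave adjusted p-values of 0.186 for KRT17, 0.127 for KRT19 and 0.101 for KRT23 in OVSAHO cells, so that these 3 differences depend on the test. Without the filter on dim signals KRT17 and KRT19 had adjusted p-values of 0.0577 and 0.0596 (limma), and fitting the OVSAHO arrays alone gave 0.0723 for KRT17. With the median of its probes KRT23 was at 0.11 (limma, adjusted p = 0.289). KRT8 had an adjusted p of 0.097 with Tukey's comparison and 0.0561 without the filter, while KRT7 passed with both, at 0.0121 and 0.00585. KRT80 passed Tukey's comparison at 0.0406 but had 0.113 without the filter and 0.0686 in the fit of the OVSAHO arrays alone.

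The other 4 keratins did not pass the test in OVSAHO cells. KRT81 stood at 4.33 and 4.59 with simvastatin and at 3.56 and 4.24 with L-778123, where its 2 arrays were 0.68 apart, the widest gap of any keratin in this line (log2 difference 0.56, SE 0.22, limma, adjusted p = 0.0878). KRT5 differed by -0.43 (SE 0.36, limma, adjusted p = 0.364), KRT18 by -0.15 (SE 0.068, limma, adjusted p = 0.115) and KRT15 by 0.052 (SE 0.067, limma, adjusted p = 0.558). The spread of KRT5 is shared with KURAMOCHI arrays at background, and the OVSAHO arrays fitted alone gave SE 0.16 (limma, adjusted p = 0.1). With quantile normalization KRT18 passed, at -0.26 (limma, adjusted p = 0.0162). With normexp KRT81 passed, at 0.52 (limma, adjusted p = 0.0169).

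**Figure D2:**
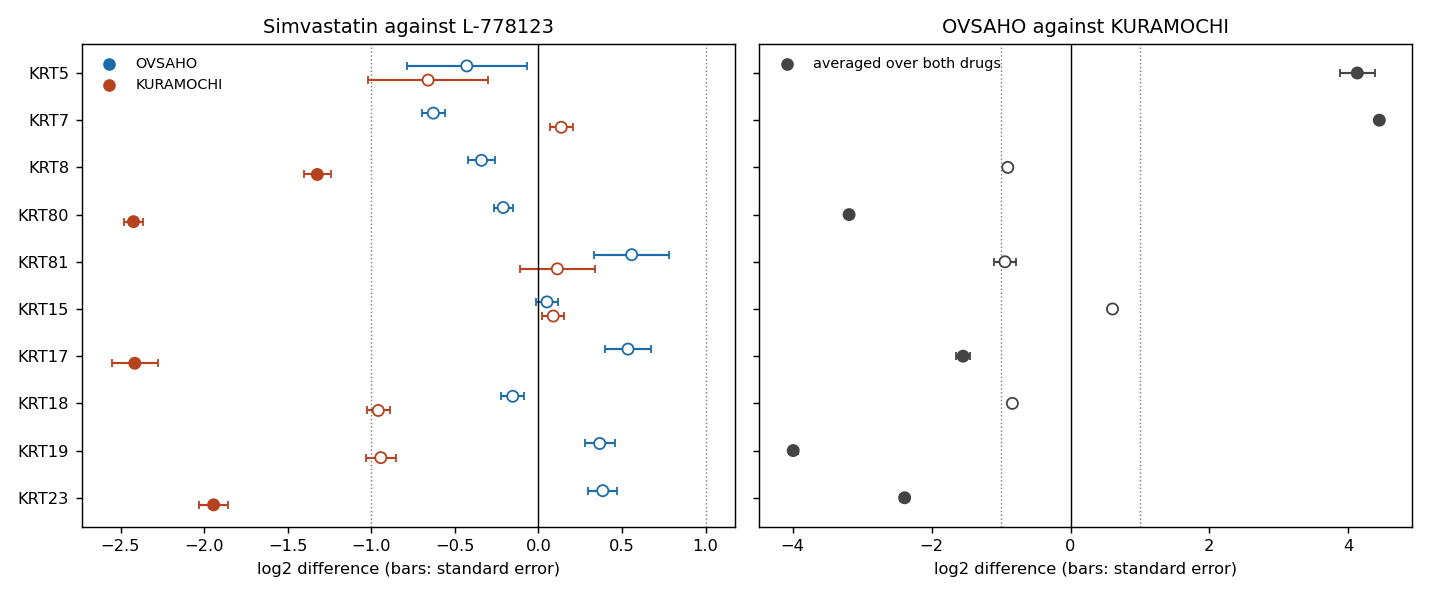
Log2 differences of the 10 keratins (x axis, bars show the standard error of the limma fit) for simvastatin minus L-778123 in each line (left) and for OVSAHO minus KURAMOCHI averaged over both drugs (right), with filled points for called genes and dotted lines at a fold change of 2. In the left panel only KURAMOCHI points are filled (KRT8, KRT80, KRT17 and KRT23), and KRT17, KRT19 and KRT23 lie on opposite sides of 0 in the lines. The KRT5 difference between the lines is measured against a background level and its size is not a fold change.

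The drug difference was then compared between the lines in the same fit, as the difference in OVSAHO minus that in KURAMOCHI. Of the 10 keratins, 4 were called higher and none lower, while 4.27% of all genes tested were called higher and 3.29% lower. KRT17 had a value of 2.95 (SE 0.20, limma, adjusted p = 0.000766), beside KRT23 at 2.33 (SE 0.12, limma, adjusted p = 0.000441), KRT80 at 2.21 (SE 0.080, limma, adjusted p = 0.000231) and KRT19 at 1.31 (SE 0.13, limma, adjusted p = 0.00221). With normexp KRT17 gave 1.88 and was below KRT80 (2.21) and KRT23 (2.03). For KRT80 the drug difference was -0.21 in OVSAHO and -2.42 in KURAMOCHI cells, the first of which turned to 0.046 with normexp.

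A further 3 keratins had an adjusted p under 0.05 below the fold threshold, a level reached by 27.4% of all genes tested at any fold. KRT8 at 0.98 (SE 0.11, limma, adjusted p = 0.00377) and KRT18 at 0.80 (SE 0.097, limma, adjusted p = 0.0043) were lower with simvastatin by more in KURAMOCHI than in OVSAHO cells. KRT7 had the opposite sign, at -0.77 (SE 0.099, limma, adjusted p = 0.00533). KRT5, KRT15 and KRT81 did not pass the test of the difference between the lines.

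Between the lines, averaged over both drugs, 6 of the 10 keratins were called, of which 2 were higher in OVSAHO (KRT7 and KRT5) and 4 were lower (KRT19, KRT80, KRT23 and KRT17). Among all genes tested 18.3% were called higher and 16.4% lower. KRT5 passed the filter only through the OVSAHO arrays, so that the direction of its call was fixed by the filter. All 10 keratins had an adjusted p under 0.05, as did 82.9% of all genes tested at any fold.

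KRT7 was the keratin with the largest difference measured on both sides. It lay between 7.71 and 8.40 on the 4 OVSAHO arrays and between 3.47 and 3.70 on the 4 KURAMOCHI arrays, 21.8-fold higher in OVSAHO (log2 difference 4.45, SE 0.049, limma, adjusted p = 7.95e-08). Within simvastatin the fold was 16.7 and within L-778123 it was 28.4. The marker keratin of ovarian carcinoma was well above background on every array of both lines.

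KRT5, the type II keratin of basal cells, was well above background only in OVSAHO cells, at -2.29 and -2.47 with simvastatin and -2.13 and -1.78 with L-778123. In KURAMOCHI cells it was not well above background on any array, at -6.70, -6.55, -6.53 and -5.41. Set on each KURAMOCHI array against the dimmest signal still well above background, KRT5 was at least 4.98-fold higher in OVSAHO. The bound was 4.15-fold with simvastatin and 5.96-fold with L-778123. The adjusted p of KRT5 (limma, 1.93e-05) belongs to the contrast with background signals and not to these bounds.

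KRT19 was the keratin with the largest difference in the other direction. It lay between 0.50 and 0.96 on the OVSAHO arrays and between 4.16 and 5.26 on the KURAMOCHI arrays, 15.9-fold lower in OVSAHO (log2 difference -3.99, SE 0.064, limma, adjusted p = 1.68e-07). KRT80 was 9.12-fold lower (log2 difference -3.19, SE 0.040, limma, adjusted p = 9.13e-08) and KRT23 was 5.24-fold lower (log2 difference -2.39, SE 0.062, limma, adjusted p = 6.82e-07). With normexp the KRT80 difference was -2.29. For each of these 3 genes every KURAMOCHI array lay above every OVSAHO array.

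The line difference of KRT17 depended on the drug. Its average was 2.92-fold lower in OVSAHO (log2 difference -1.55, SE 0.098, limma, adjusted p = 2.27e-05), but with simvastatin the lines overlapped and differed by -0.072 (SE 0.14, limma, adjusted p = 0.665), and with L-778123 they differed by -3.02 (SE 0.14, 8.13-fold, limma, adjusted p = 1.05e-05). The test of this dependence is the interaction above (2.95). With the normexp background correction the average was -0.93, under the fold threshold.

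The remaining 4 keratins differed between the lines by less than 2-fold on average. KRT15 was 1.52-fold higher in OVSAHO (log2 difference 0.60, SE 0.047, limma, adjusted p = 5.89e-05), at 0.0054, 0.0088, -0.079 and -0.010 on the OVSAHO arrays and -0.63, -0.53, -0.72 and -0.62 on the KURAMOCHI arrays. KRT8, KRT18 and KRT81 were lower in OVSAHO, by -0.90, -0.84 and -0.94 on the log2 scale. Within L-778123 these 3 passed the fold threshold, at 2.63-fold for KRT8 (limma, adjusted p = 2.36e-05), 2.36-fold for KRT18 (limma, adjusted p = 2.04e-05) and 2.24-fold for KRT81 (limma, adjusted p = 0.00439). Within simvastatin they were 1.33-fold, 1.35-fold and 1.65-fold lower, with adjusted p-values of 0.00444, 0.0018 and 0.0285 by limma.

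By drug, 5 keratins were called between the lines with simvastatin, KRT5 and KRT7 higher and KRT80, KRT19 and KRT23 lower in OVSAHO. Of all genes, 18.9% were called higher and 17.2% lower there. With L-778123, 9 keratins were called, KRT5 and KRT7 higher and the others lower, beside 17.9% and 16.3% of all genes. The direction of KRT5 was fixed by the filter with either drug. The keratin called with neither drug was KRT15. These comparisons within a drug were added after the values had been seen.

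Ordered by their group means, KRT8, KRT80 and KRT18 ran from OVSAHO with simvastatin (lowest) through OVSAHO with L-778123 and KURAMOCHI with simvastatin to KURAMOCHI with L-778123 (highest). KRT17, KRT19 and KRT23 had the same upper groups and the opposite order of the OVSAHO groups. The neighbours whose arrays overlapped were OVSAHO with L-778123 and KURAMOCHI with simvastatin for KRT8, OVSAHO with simvastatin and KURAMOCHI with simvastatin for KRT17, and both KURAMOCHI groups for KRT15. KRT7 was highest in OVSAHO with L-778123 and lowest in KURAMOCHI with L-778123.

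The probes of 1 gene did not always give the same picture. KRT8 had a probe designed on a non-coding RefSeq record of the gene besides 2 probes on its coding record. The non-coding probe stood at 3.38 and 3.38 in OVSAHO with simvastatin, 2.55 and 2.67 in OVSAHO with L-778123, 1.77 and 1.80 in KURAMOCHI with simvastatin and 1.88 and 1.92 in KURAMOCHI with L-778123.

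This probe was therefore highest where the coding probes of KRT8 were lowest. It was higher with simvastatin in OVSAHO cells by 0.77 (SE 0.063, limma, adjusted p = 0.000376), did not pass the test in KURAMOCHI cells (log2 difference -0.11, SE 0.063, limma, adjusted p = 0.232) and was 2.23-fold higher in OVSAHO than in KURAMOCHI (limma, adjusted p = 2.89e-06). The dimmer coding probe followed the brighter coding probe, at -0.40 in OVSAHO cells (SE 0.12, limma, adjusted p = 0.0401), -1.33 in KURAMOCHI cells (SE 0.12, limma, adjusted p = 0.0012) and 2.01-fold lower in OVSAHO than in KURAMOCHI (limma, adjusted p = 8.5e-05). Which transcript the non-coding probe binds was not tested.

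**Figure D3:**
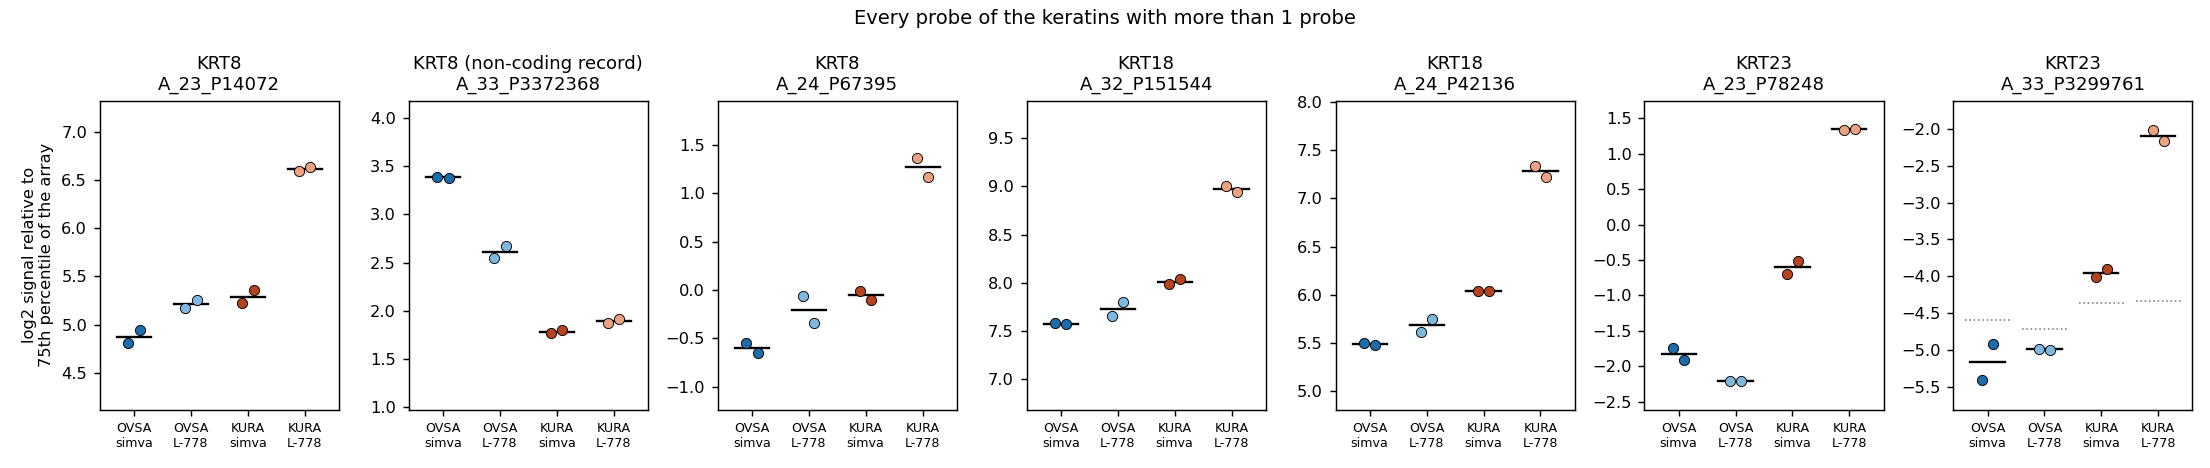
Log2 signal relative to the 75th percentile of the array (y axis, a scale of its own in each panel) of every probe of KRT8, KRT18 and KRT23 in OVSAHO (OVSA) and KURAMOCHI (KURA) cells with simvastatin (simva) or L-778123 (L-778), with 1 point per array, bars at group means and dotted lines at the higher of the lowest signals well above background on the 2 arrays. The KRT8 probe on the non-coding record is highest in OVSAHO with simvastatin, where both other KRT8 probes are lowest, and the second KRT23 probe lies under the dotted line in both OVSAHO groups.

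Keratins have many pseudogenes and close relatives, and a probe may bind more than 1 of them. A probe named for KRT18P55, a KRT18 pseudogene, differed by -0.16 in OVSAHO cells (limma, adjusted p = 0.0565), -1.19 in KURAMOCHI cells (limma, adjusted p = 0.000197) and -1.09 between the lines (limma, adjusted p = 2e-06), and it was also the gene outside the 10 whose levels over the 8 arrays were most like those of KRT18 (Pearson r 0.997). A probe named for KRT19P2 differed by -0.91 in KURAMOCHI cells (limma, adjusted p = 0.0393) and by -3.68 between the lines (limma, adjusted p = 6.4e-06), beside -0.94 and -3.99 for KRT19. The part of shared sequence in these values was not tested. KRT81 has close relatives among the hair keratins, of which KRT83, at -1.46 in KURAMOCHI cells (limma, adjusted p = 0.000249), was called lower with simvastatin where KRT81 did not pass the test.

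Type II keratin genes lie together on chromosome 12 and type I keratin genes on chromosome 17, with KRT18 as the exception, beside KRT8. In the gene order of RefSeq (assembly GRCh38.p14) no protein-coding gene lies between KRT80 and KRT7, between KRT8 and KRT18, or between KRT15 and KRT19. In KURAMOCHI cells the log2 differences between the drugs were -1.32 and -0.96 for the neighbours KRT8 and KRT18. KRT80 and KRT7 gave -2.42 and 0.14, and KRT15 and KRT19 gave 0.089 and -0.94.

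The RefSeq table of promoters held 2 of the 10 genes, KRT5, which was above background in OVSAHO cells alone, and KRT8, which was called lower with simvastatin in KURAMOCHI cells. The 250 bases before each start are shown 5′ to 3′ on the minus strand of chromosome 12, at chr12:52520395-52520644 for KRT5 and chr12:52926470-52926719 for KRT8 (GRCh38.p14), with the only motif found in capitals.
KRT5: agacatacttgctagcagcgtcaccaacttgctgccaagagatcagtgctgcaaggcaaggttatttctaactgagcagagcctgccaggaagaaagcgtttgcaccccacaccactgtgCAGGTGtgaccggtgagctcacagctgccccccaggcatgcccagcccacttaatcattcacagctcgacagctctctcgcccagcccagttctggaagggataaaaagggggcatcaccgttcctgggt
KRT8: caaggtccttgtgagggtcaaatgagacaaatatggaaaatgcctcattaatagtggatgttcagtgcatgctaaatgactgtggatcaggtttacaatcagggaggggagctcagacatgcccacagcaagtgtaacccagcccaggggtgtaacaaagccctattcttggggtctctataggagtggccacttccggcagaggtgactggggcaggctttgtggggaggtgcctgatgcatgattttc

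Both strands were searched for the AP-1 motif TGANTCA, the GC box GGGCGG, the TATA box TATAAA and the GRHL motif AACNGGTT, and neither promoter held any of them. Over all 35116 promoters of the table, the same windows held them in 6.57%, 42.6%, 10.7% and 1.49%. The E-box CAGGTG, a motif that repressors such as SNAI2 can bind, was added after the sequences had been read. It occurred once in the KRT5 promoter, at bases -130 to -125 from the start, and not in that of KRT8, and 17.5% of all promoters held it. A match of letters is a description and not a measured binding site. GC content was 56% for KRT5 and 50.4% for KRT8.

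The other type I and type II keratins, 45 genes, showed the range of the family in these lines. Of these, 43 had a named probe and 19 passed the filter, and 20 were not well above background on any array. In KURAMOCHI cells 3 of the 19 were called lower with simvastatin and none higher, beside 2.94% and 2.43% of all genes (median log2 difference -0.29, beside 0.011 over all genes), and at an unadjusted p under 0.05 there were 2 higher and 8 lower. They were KRT14, the type I partner of KRT5 (-1.65, SE 0.38, limma, adjusted p = 0.0238), KRT4, a keratin of mucosal surfaces (-1.47, SE 0.077, limma, adjusted p = 0.000265), and KRT83. KRT14 stood at -2.66 and -1.45 with simvastatin and at -0.46 and -0.35 with L-778123 in KURAMOCHI cells, so that its 2 arrays with simvastatin lay far apart. The analysis of variance with Tukey's comparison called 2 of the 19 in KURAMOCHI cells.

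In OVSAHO cells 1 of the 19 was called higher and 1 lower, beside 5.69% and 5.87% of all genes. The median was 0.042, beside 0.014 over all genes. KRT16, a type I keratin of wounded and activated epidermis, stood at -0.36 and -0.33 with simvastatin and at -2.95 and -3.04 with L-778123, a log2 difference of 2.65 (SE 0.36, limma, adjusted p = 0.00226). KRT4 was lower with simvastatin, by -1.57 (SE 0.077, limma, adjusted p = 7.48e-05), and was thus called in the same direction in both lines.

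The drug difference itself differed between the lines for 3 of the 19, all higher in OVSAHO (median 0.35, beside -0.0083 over all genes). The analysis of variance called 1 of the 19 for this difference. Among all genes tested, limma called 4.27% higher and 3.29% lower. The 3 keratins called were KRT14 (2.46, SE 0.54, limma, adjusted p = 0.0263), KRT6A (1.53, SE 0.34, limma, adjusted p = 0.0275) and KRT9 (1.09, SE 0.18, limma, adjusted p = 0.0104), and KRT6A was not well above background on any OVSAHO array. Of its value, 0.64 came from OVSAHO signals at background and the rest from KURAMOCHI cells, where the drug difference was -0.89 (SE 0.24, limma, adjusted p = 0.0386), under the fold threshold, so that its call gives no size. Without the first OVSAHO array with L-778123 the count was 0, and it was 1 without the second of these arrays or without either KURAMOCHI array with L-778123.

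Between the lines 2 of the 19 were called higher in OVSAHO and 4 lower, beside 18.3% and 16.4% of all genes. KRT6A, a type II keratin of activated epidermis, lay between -0.52 and 0.41 on the KURAMOCHI arrays and was not well above background on any OVSAHO array, so that it was at least 25.8-fold lower in OVSAHO (limma, adjusted p = 6.57e-07). KRT6C was at least 3.19-fold lower there (limma, adjusted p = 4.19e-06). KRT16 showed the reverse, at least 7.01-fold higher in OVSAHO (limma, adjusted p = 1.96e-05), and KRT13 was at least 1.69-fold higher (limma, adjusted p = 1.04e-06), both without a KURAMOCHI array well above background. KRT6A, KRT6C, KRT16 and KRT13 each passed the filter only through the line where they were high, so that their direction was fixed by the filter. Their p-values belong to contrasts with background signals and not to the bounds. The bound of KRT13 lies under the fold threshold of 2.

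Linkers of keratin filaments to desmosomes and hemidesmosomes formed a list of 21 genes, of which 15 passed the filter. In OVSAHO cells 6 of them were called higher with simvastatin and none lower, beside 5.69% and 5.87% of all genes, and their median log2 difference was 0.64, beside 0.014 over all genes. They were ITGB4 (2.02, SE 0.062, limma, adjusted p = 2.43e-05) and ITGA6 (1.597, SE 0.080, limma, adjusted p = 7.83e-05), the chains of the hemidesmosome integrin, the desmosomal cadherin DSC2 (1.605, SE 0.20, limma, adjusted p = 0.00153), the plakin PLEC (1.45, SE 0.069, limma, adjusted p = 7.03e-05), and PPL and DSG2.

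In KURAMOCHI cells none of the 15 was called, beside 2.43% of all genes called higher and 2.94% lower. Their median was -0.071, beside 0.011 over all genes. At an unadjusted p under 0.05 limma gave 1 higher and 2 lower, and the analysis of variance with Tukey's comparison called 0. The difference between the lines was called for 6 of the 15, all higher in OVSAHO, beside 4.27% of all genes called higher and 3.29% lower, with DSC2 at 1.88 (SE 0.28, limma, adjusted p = 0.00793), ITGB4 at 1.77 (SE 0.088, limma, adjusted p = 0.000384), ITGA6 at 1.65 (SE 0.11, limma, adjusted p = 0.000825) and PLEC at 1.48 (SE 0.098, limma, adjusted p = 0.000753).

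Between the lines 3 linkers were called higher and 5 lower in OVSAHO, beside 18.3% and 16.4% of all genes. PKP3, a desmosomal plaque protein, stood at 0.66, 0.62, -0.43 and -0.24 in OVSAHO cells. It was not well above background in KURAMOCHI cells, at least 24.9-fold higher in OVSAHO. PKP3 passed the filter only through the OVSAHO arrays, so that its direction was fixed by the filter. Its adjusted p (limma, 3.55e-07) belongs to the contrast with background signals and not to the bound. DST, PPL and EPPK1, all plakins, were lower in OVSAHO, by -2.98, -1.89 and -1.69 on the log2 scale (limma, adjusted p-values of 2.44e-07, 3.53e-07 and 2.41e-06).

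**Figure D4:**
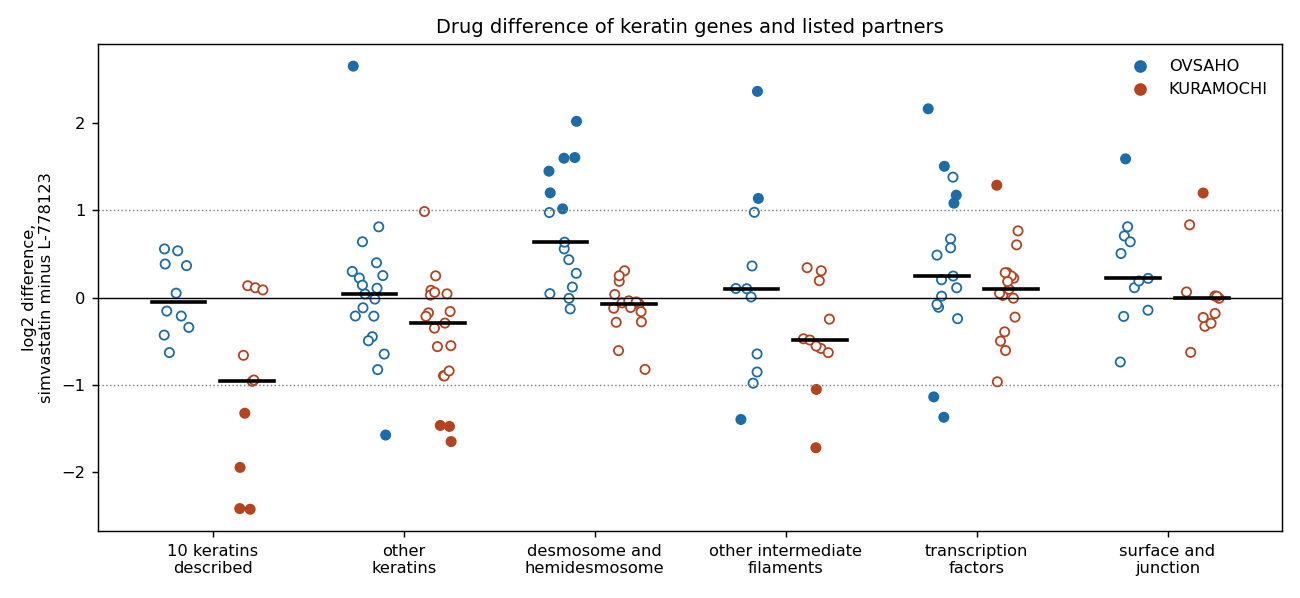
Log2 difference, simvastatin minus L-778123 (y axis), in OVSAHO and KURAMOCHI cells for the 10 keratins and for the genes of 5 other lists that passed the filter, with 1 point per gene, filled where called, a bar at the median and dotted lines at a fold change of 2. Every filled keratin point among the 10 lies below 0 in KURAMOCHI, and the 6 filled desmosome and hemidesmosome points all lie above 0 in OVSAHO.

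Among 15 other intermediate filament genes, of which 11 passed the filter, 2 were called higher and 1 lower with simvastatin in OVSAHO cells (median 0.10), and 2 were called lower in KURAMOCHI cells (median -0.48). Of all genes tested, 5.69% were called higher and 5.87% lower in OVSAHO cells (median 0.014). In KURAMOCHI cells these shares were 2.43% and 2.94% (median 0.011). The count lower in OVSAHO cells was 2 without the first array with simvastatin or the first with L-778123. VIM, the filament protein of mesenchymal and many cultured cells, was higher in OVSAHO cells by 1.14 (SE 0.096, limma, adjusted p = 0.000413), PRPH by 2.36 (SE 0.063, limma, adjusted p = 2.02e-05), and the lamin LMNB2 was lower by -1.39 (SE 0.066, limma, adjusted p = 6.94e-05). In KURAMOCHI cells NES (-1.05, SE 0.10, limma, adjusted p = 0.00144) and BFSP1 (-1.72, SE 0.091, limma, adjusted p = 0.000275) were lower, and both also differed between the lines in their drug difference, by 2.03 and 1.73 (limma, adjusted p-values of 0.000906 and 0.00105). PRPH was the third such gene, at 2.05 (limma, adjusted p = 0.000285), beside 4.27% of all genes called higher and 3.29% lower. Between the lines PRPH (3.40), INA (2.83) and LMNB1 (1.18) were higher in OVSAHO and 2 genes were lower, of which NES differed by -1.22. Among all genes 18.3% were called higher and 16.4% lower in OVSAHO.

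Of 21 transcription factors of epithelial and keratin genes 17 passed the filter. In OVSAHO cells 4 were called higher with simvastatin, with ELF3 at 2.16 (SE 0.097, limma, adjusted p = 5.93e-05), TFAP2C at 1.504 (SE 0.15, limma, adjusted p = 0.000715) and KLF4 at 1.17 (SE 0.36, limma, adjusted p = 0.0402) among them, and 2 lower (1 without the second array with simvastatin), beside 5.69% and 5.87% of all genes. The lower genes were EHF, at -1.37 (SE 0.085, limma, adjusted p = 0.000146), and SNAI2, which was not well above background on any OVSAHO array, so that its call compares background signals and no fold change is given. In KURAMOCHI cells 1 was called, SOX2, whose signal was well above background on 1 of the 4 KURAMOCHI arrays, so that no fold change is given, and none was called without either KURAMOCHI array with simvastatin or without the first with L-778123. The analysis of variance called 4 factors in OVSAHO cells, 0 in KURAMOCHI cells and 3 for the comparison of the drug difference between the lines. In KURAMOCHI cells 6 had an unadjusted p under 0.05 by limma. Among all genes 2.43% were called higher and 2.94% lower in KURAMOCHI cells. The drug difference differed between the lines for 5 factors, 3 higher and 2 lower in OVSAHO, beside 4.27% and 3.29% of all genes. Of these factors, ELF3 (1.94, limma, adjusted p = 0.000905) and TFAP2C (1.22, limma, adjusted p = 0.0129) were higher in OVSAHO. The 2 lower were SNAI2 and SOX2, each of which lay at background in 1 line, on all 4 arrays for SNAI2 and on 3 of 4 for SOX2, so that no size is given for either.

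Between the lines 10 of the 17 factors were called, 4 higher and 6 lower in OVSAHO, beside 18.3% and 16.4% of all genes. SOX2 and ELF3 were higher in OVSAHO, ELF3 by 3.15 (SE 0.068, limma, adjusted p = 3.92e-07). SNAI2, a repressor of epithelial genes, stood at -2.03, -1.99, -2.28 and -2.32 in KURAMOCHI cells. It was not well above background in OVSAHO cells, at least 6.09-fold lower there. SNAI2 and ZEB2, both called lower, passed the filter only through the KURAMOCHI arrays. SOX2 and KLF4, both called higher, passed it only through the OVSAHO arrays. The direction of these calls was therefore fixed by the filter. The adjusted p of SNAI2 (limma, 1.13e-06) belongs to the contrast with background signals and not to the bound. RUNX1 was lower in OVSAHO by -2.62 (SE 0.055, limma, adjusted p = 3.59e-07). No relation of these factors to the keratins was tested.

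Of 12 other epithelial surface and junction genes 11 passed the filter. CLDN4, a claudin of tight junctions, was called higher with simvastatin in both lines, by 1.59 in OVSAHO (SE 0.061, limma, adjusted p = 4.04e-05) and 1.198 in KURAMOCHI cells (SE 0.061, limma, adjusted p = 0.000257), and was the only call of this list for either drug comparison. Of all genes tested, 5.69% were called higher in OVSAHO cells and 2.43% in KURAMOCHI cells. For the difference between the lines none of this list was called, beside 4.27% of all genes called higher and 3.29% lower. At an unadjusted p under 0.05 limma gave 6 higher and 3 lower, and the analysis of variance called 0. Between the lines 6 of the 11 were called higher in OVSAHO and none lower, beside 18.3% and 16.4% of all genes, led by CDH1 (E-cadherin, 5.78, SE 0.066, limma, adjusted p = 8.02e-08), EPCAM (2.60, SE 0.045, limma, adjusted p = 2.06e-07), CLDN7 (1.68, SE 0.053, limma, adjusted p = 1.31e-06) and CLDN4 (1.53, SE 0.043, limma, adjusted p = 9.36e-07). KRT7 shared this direction, and KRT19, KRT80, KRT23 and KRT17 had the opposite one. KRT5 was also called higher in OVSAHO, but its direction was fixed by the filter.

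The genes outside the 10 whose log2 signals over the 8 arrays were most like those of a keratin were found by Pearson's r. The points are 8 arrays in 4 groups, so that a high r mainly says that 2 genes rank the groups alike. For KRT80 they were ARPC5 (r 0.998) and ACTA2 (r 0.997), for KRT8 ACTN1 (r 0.994) and SH3RF1 (r 0.990), and after KRT18P55 the next for KRT18 was ZYX (r 0.995). KRT17 was most like RAB11FIP1 and DAPK3, KRT19 like TANK and PROCR, and KRT23 like ERC2 and LINC00052, while KRT7 was most like LINC02308 and GPRASP1, KRT5 like SCMH1 and PRAMEF14, KRT15 like PLEKHA1 and CPLX1, and KRT81 like DAGLB and FEZ1.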

How the data were processed

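RNA of OVSAHO and KURAMOCHI cells was labelled with 1 dye and hybridised to SurePrint G3 Human Gene Expression arrays. The authors extracted the images with Feature Extraction 11.5.1.1 and deposited, for each spot, a processed signal, an intensity corrected for background within the array and not normalized between arrays, with the median signal, the local background and flags. They also deposited a table of intensities on a linear scale whose columns share 1 distribution and correlate at 0.999 or more with the array of the same name; the median of each column is 26.5, and the table served as an alternative.

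Control spots and outlier spots (58 to 99 per array) were left out, spots of a probe were averaged, and the 75th percentile of an array was subtracted from its log2 processed signals (324 to 437 intensity units). The number of arrays, not depth, limits the precision, and no spot was saturated. Of 58162 probes 33753 passed the filter. Gene names came from RefSeq (GRCh38.p14), which named 24768 of 50069 identifiers. A gene was represented by its brightest probe. limma 3.58.1 in R 4.3.3 fitted 1 mean per group with a spread shared by the 4 groups (lmFit, eBayes, Benjamini-Hochberg), and the fit was tested on simulated data. A group without an array well above background has only a bound, the bright group against, per array, the higher of the lowest signal well above background and the signal of the probe. The methods name a two-way analysis of variance followed by Tukey's comparison, which was run as an alternative.

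Named genes were the 10 keratins, up to 4 called genes of each list per comparison with the largest changes, and the 2 genes most like each keratin. PPL, DSG2, ZEB2, the pseudogene probes and the E-box were added after values or sequences had been seen. The members and lists were chosen with earlier results of these data known, and 1 list of cell type markers is not reported here. Alternatives were the background correction, the normalization, the filter, the probe rule, the threshold, the groups fitted, a replicate block and leaving out each array.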

Additional observations from a re-analysis of the deposited data

Results flagged for a closer look

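The drug difference (simvastatin minus L-778123, log2 scale) was not the same in both lines for 7 keratins by the interaction test in limma, at an adjusted p under 0.05. The value in OVSAHO minus that in KURAMOCHI was 2.95 for KRT17, 2.33 for KRT23, 2.21 for KRT80, 1.31 for KRT19, 0.98 for KRT8, 0.80 for KRT18 and -0.77 for KRT7. KRT17, KRT19 and KRT23 lay higher with simvastatin on the OVSAHO arrays, by limma but not by Tukey's comparison (adjusted p-values of 0.186, 0.127 and 0.101), and lower with it in KURAMOCHI cells. With normexp KRT17 gave 1.88. KRT8 and KRT80 were lower with simvastatin in both lines by limma, in OVSAHO cells KRT80 not under normexp (0.046) and KRT8 not by Tukey's comparison (adjusted p = 0.097). KRT18 was lower in KURAMOCHI cells and differed by -0.15 (adjusted p = 0.115 by limma) in OVSAHO cells. With quantile normalization KRT18 differed by -0.26 in OVSAHO cells (adjusted p = 0.0162 by limma). KRT7 was lower with simvastatin in OVSAHO cells (-0.63) and differed by 0.14 (adjusted p = 0.192 by limma) in KURAMOCHI cells. At the dimmer KRT18 probe the value was 1.05, past the fold threshold.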

How the results depend on the processing

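With no fold threshold the number of keratins called was 6 for OVSAHO, 7 for the difference between the lines and 10 between the lines, and with a threshold of 1.5 it was 1, 7 and 10. Leaving out 1 array at a time gave 0 in OVSAHO, 4 to 5 in KURAMOCHI, 4 to 5 for the difference and 6 to 7 between the lines. Quantile normalization and the authors' table each called 5 in KURAMOCHI, adding KRT18, and 9 between the lines, while normexp and a filter for all 8 arrays called 5 between the lines. Taking each gene's median probe turned KRT8 to 0.77 in OVSAHO and 1.16 between the lines, because its non-coding probe is the middle of 3, and put KRT18 in the place of KRT8 in KURAMOCHI. KRT80 in OVSAHO turned to 0.046 with normexp. KRT5 in KURAMOCHI turned to 0.095 with a floor on dim signals, and its difference between the lines to -0.069 with normexp and -0.52 with the floor, while leaving out 1 array gave -0.33 to 0.79, with -0.33 without the second KURAMOCHI array with L-778123. KRT15 ran from -0.088 to 0.013 for the difference, reaching 0.0089 without the second KURAMOCHI array with simvastatin and 0.013 without the first with L-778123. Of these reversed values only those of KRT8 had an adjusted p under 0.05 (limma). Fitting only the groups compared gave no value for the difference or between the lines, which need all groups, and the filter for all 8 arrays gave none for KRT5. The replicate numbers did not pair the arrays (deviations correlated at 0.00085 to 0.056), and a replicate block gave 0, 4, 4 and 6 keratins called. The arrays within a group are 2, and signal near background limits KRT5 and the second KRT23 probe.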
